A study of Sus scrofa with 31 samples.

Results

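The genes described here are FCER1G and FCGR1A, which encode the common Fc gamma chain and the high affinity receptor for immunoglobulin G, in RNA sequencing of pig microglia, alveolar macrophages and brain tissue. They were chosen by name from the group FCER1G, FCGR1A, FCGR2B and FCGR3A, with the Ensembl identifier that the supplementary tables of the study pair with each symbol. FCER1G (ENSSSCG00000006357) and FCGR1A (ENSSSCG00000006678) have such a pairing, FCGR2B and FCGR3A have none, and so 2 of the 31907 counted genes were taken. A pair of related genes is given beside them. The first is named FCGR3B in the tables (ENSSSCG00000036618) and described there as Fc gamma receptor IIIa, and it lies at the RefSeq gene FCGR3A. The second has no name in the tables (ENSSSCG00000006350), is described as a II-like receptor for the Fc of immunoglobulin G, and is called FCGR2-like here.

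The study compared microglia of the cerebellum, frontal cortex and hippocampus (n = 8 samples each) with each other, with alveolar macrophages (n = 3) and with whole hippocampal tissue (n = 4). All samples came from male piglets in the fourth week of life, crosses of Large White and Landrace sows with Duroc semen, born in standard or freer pens, without a transgene or an experimental drug, and sedated and anaesthetised for imaging before they were killed. The 31 samples carry the tags of 15 pigs, of which 9 gave more than 1 sample. The study's methods state more pigs, and more pigs with several brain regions, than the tags give. Microglia were sorted as CD11b high, CD45 low cells and macrophages from lung lavage as F4/80+, CD163 low cells, after the suspensions had been blocked with human immunoglobulin G. RNA of sorted cells and of tissue was extracted with different kits, so extraction cannot be told apart from the difference between cells and tissue.

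Receptors for the Fc part of antibodies let myeloid cells take up antibody-coated particles. FCGR1A and the IIIa receptor have no signalling motif of their own in the chain that binds antibody and signal through the Fc gamma chain, whose ITAM is phosphorylated by Src family kinases and then recruits SYK. The IIb receptor carries an inhibitory motif instead, which recruits the phosphatase encoded by INPP5D. Microglia and macrophages use this system in the clearance of debris and of antibody-bound material.

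Both genes lie on chromosome 4 of Sscrofa11.1 in the RefSeq annotation. FCER1G spans 89242467 to 89246344 on the minus strand, with 5 exons of 579 bases in all, and FCGR1A spans 99233632 to 99242531 on the minus strand, with 6 exons of 1253 bases. FCGR3B, at 88948357 to 88956513 on the plus strand, and FCGR2-like, at 88973813 to 88989781 on the minus strand, lie in the same cluster as the RefSeq gene FCGR2B, at 88873762 to 88892964, for which no identifier was used here. These receptor genes are close in sequence, and how the counting divided reads between them was not tested, so the values of FCGR3B and FCGR2-like are uncertain.

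The 250 bases before the annotated start of each of the 2 genes are shown because their levels are followed together below. They were read from the RefSeq genome in the direction of transcription, FCER1G at chr4:89246345-89246594 (minus strand) and FCGR1A at chr4:99242532-99242781 (minus strand). Capitals mark matches to GAGGAA, the core of sites bound by the myeloid factor PU.1, and to TTCNNNGAA, the form bound by STAT factors.
FCER1G: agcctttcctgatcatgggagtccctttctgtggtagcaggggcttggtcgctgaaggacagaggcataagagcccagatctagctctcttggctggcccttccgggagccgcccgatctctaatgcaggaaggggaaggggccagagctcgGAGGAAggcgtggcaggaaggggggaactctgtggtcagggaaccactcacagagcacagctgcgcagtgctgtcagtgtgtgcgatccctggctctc
FCGR1A: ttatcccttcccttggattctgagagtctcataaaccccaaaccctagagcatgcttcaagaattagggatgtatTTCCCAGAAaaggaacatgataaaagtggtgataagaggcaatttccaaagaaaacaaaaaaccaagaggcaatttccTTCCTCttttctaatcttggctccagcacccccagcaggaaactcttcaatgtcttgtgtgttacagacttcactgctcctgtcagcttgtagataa
FCER1G holds GAGGAA from base 98 before the start. FCGR1A holds it on the opposite strand, as TTCCTC, from base 97 before the start, and holds TTCCCAGAA from base 175. Searched on both strands, GAGGAA was present in 22% and TTCNNNGAA in 6.11% of 19551 pig promoters of the same length. FCGR3B had 1 match to GAGGAA and FCGR2-like had 2 matches to each motif. The motifs do not overlap each other in these windows, and a match is a description of letters only.

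Total counts on genes ranged from 18438494 to 43477403 per sample, at which 3 counts correspond to 0.069 to 0.163 CPM (counts scaled to the library total), for counting error only. FCER1G and FCGR1A had at least 114 counts in every sample. The labels of the sorted cells were checked against marker genes. The summed CPM of 5 microglial markers (P2RY12, TMEM119, CX3CR1, TREM2 and GPR34) was 1960 to 3780 in the microglia samples, 50.6 to 75.4 in alveolar macrophages and 63.7 to 87.0 in hippocampal tissue. The sum of 5 markers of macrophages outside the brain parenchyma was 631 to 1140 CPM in alveolar macrophages. In microglia it was 1.72 to 43.3 CPM, and ADGRE1 had 0 counts in all microglia samples. MARCO, among these 5 markers, had 0 counts in every sample of all groups, macrophages included. The macrophage sum came mainly from CD163 (303 to 587 CPM) and MRC1 (218 to 350 CPM), with 64.6 to 146 CPM of ADGRE1. ADGRE1 and CD163 encode the antigens used to sort the macrophages, so their levels are not an independent check of the label. Alveolar macrophage samples also held 680 to 2660 CPM of 4 B and plasma cell markers, 542 to 1110 CPM of 4 T cell markers and 401 to 873 CPM of 5 neutrophil markers. In microglia these sums were 37.0 to 183, 14.9 to 73.4 and 2.86 to 39.4 CPM. Markers of other brain cells were present in microglia as well. Oligodendrocyte markers (3) summed to 143 to 764 in cerebellar, 162 to 1670 in frontal cortex and 138 to 403 CPM in hippocampal microglia. In the same order 4 neuronal markers summed to 9.37 to 140, 6.94 to 130 and 1.17 to 35.3 CPM. The 3 astrocyte markers summed to 14.5 to 56.0, 20.3 to 145 and 17.6 to 120 CPM. The part of these cells in the regional values was not tested.

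FCER1G was abundant in every sorted population and sparse in tissue. Its TMM-normalized expression had a lowest, median and highest value of 309, 349 and 445 CPM in cerebellar microglia, 316, 486 and 629 CPM in frontal cortex microglia, and 300, 432 and 529 CPM in hippocampal microglia. The alveolar macrophages of pigs 12821, 12829 and 12984 had 111, 182 and 337 CPM. The hippocampal tissue of pigs 12821, 12829, 12847 and 12872 had 13.8, 11.6, 8.98 and 8.61 CPM. The ranges of the 3 microglia groups overlapped, the macrophage sample of pig 12984 lay within the range of microglia, and every tissue sample lay below every sorted sample.

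FCGR1A set the microglia apart from the macrophages more clearly. Its lowest, median and highest values were 216, 239 and 303 CPM in cerebellar, 183, 248 and 335 CPM in frontal cortex and 234, 255 and 322 CPM in hippocampal microglia. In the alveolar macrophages of pigs 12821, 12829 and 12984 it had 14.6, 17.2 and 54.1 CPM, and in the tissue of pigs 12821, 12829, 12847 and 12872 it had 5.09, 9.81, 4.38 and 3.50 CPM. No sample of microglia overlapped with macrophages, and no sample of macrophages with tissue. Pig 12984 had the highest macrophage value of both genes.

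**Figure D1:**
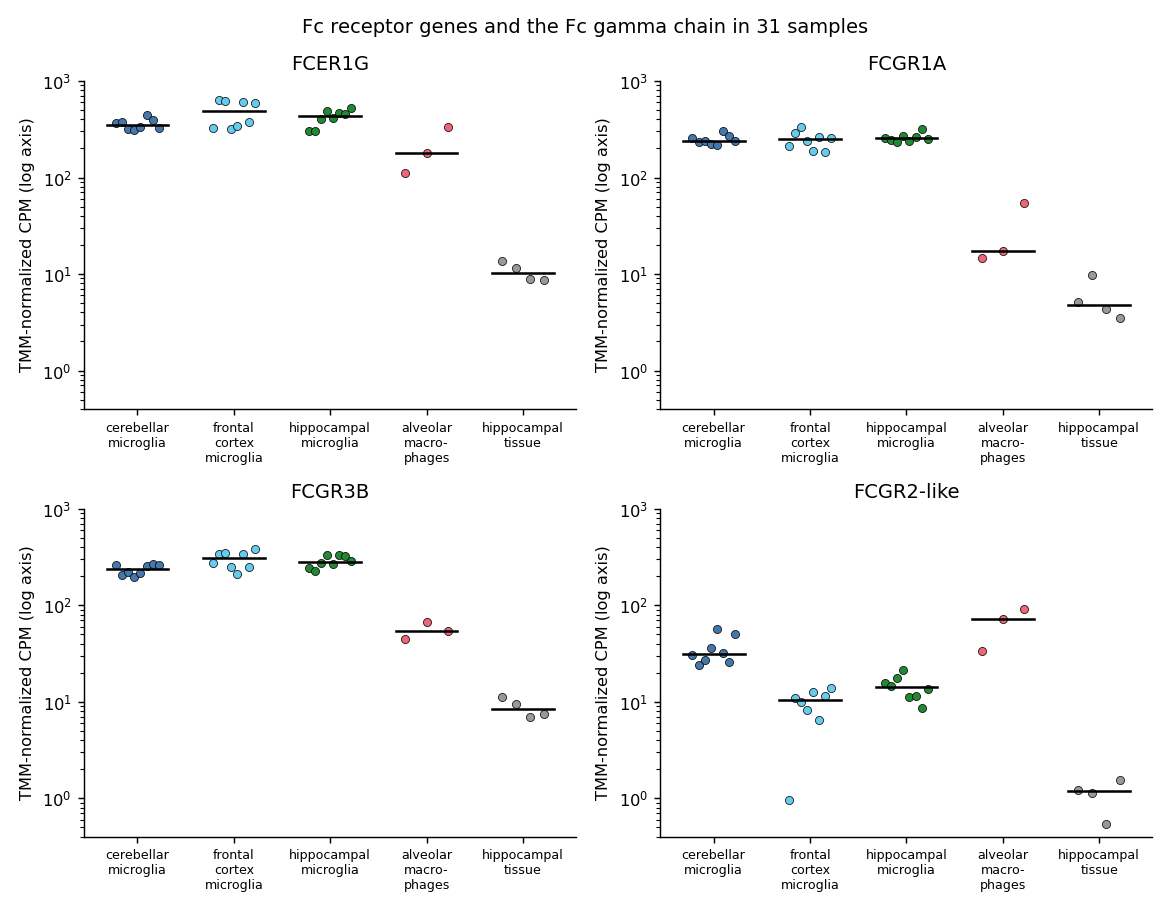
TMM-normalized CPM (log axis) of FCER1G, FCGR1A, FCGR3B and FCGR2-like in each of the 31 samples, by group, with 1 point per sample and a line at the group median. For FCGR1A and FCGR3B every microglia sample lies above every macrophage sample, while FCGR2-like is highest in alveolar macrophages and, among microglia, in the cerebellum.

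The related genes went in opposite directions. FCGR3B had 194 to 268 CPM in cerebellar, 213 to 385 CPM in frontal cortex and 226 to 333 CPM in hippocampal microglia. It had 45.2, 66.8 and 53.8 CPM in the macrophages of pigs 12821, 12829 and 12984, and 6.93 to 11.12 CPM in tissue. FCGR2-like had a lowest, median and highest value of 23.8, 31 and 57.1 CPM in cerebellar, 0.959, 10.4 and 13.8 CPM in frontal cortex and 8.57, 14.1 and 21.5 CPM in hippocampal microglia. Its macrophage values were 33.7, 72.8 and 91.2 CPM in pigs 12821, 12829 and 12984, and its tissue values were 0.536 to 1.54 CPM. Every cerebellar sample of FCGR2-like lay above every other microglia sample, and macrophages overlapped with the cerebellar samples alone.

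Per kilobase of annotated exon, the Fc gamma chain was the most abundant of the 4 transcripts in microglia. The level of FCER1G over the 24 microglia samples was 723 ± 187 CPM per kilobase (SD), against 288 ± 54.8 for FCGR3B, 200 ± 29.2 for FCGR1A and 5.84 ± 4.07 for FCGR2-like. In alveolar macrophages (n = 3) the levels were 362 ± 200 for FCER1G, 58.1 ± 11.4 for FCGR3B, 22.8 ± 17.6 for FCGR1A and 19.6 ± 8.72 CPM per kilobase for FCGR2-like. In the macrophages FCGR2-like was thus close to FCGR1A, and in microglia far below it. These levels rest on RefSeq exons, which can differ from the Ensembl models that were counted.

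The comparison of microglia with alveolar macrophages asked how brain macrophages differ from those of another tissue. Over all 24 microglia samples FCGR1A was higher than in macrophages, at 251 ± 36.6 against 28.6 ± 22.1 CPM (SD, n = 24 and 3), with a log2 fold change of 3.13 ± 0.32 (SE; edgeR's quasi-likelihood F test, p adjusted by the Benjamini-Hochberg method = 1.28e-09). FCER1G had 419 ± 108 against 210 ± 116 CPM and a log2 fold change of 0.99 ± 0.25 (SE; edgeR adjusted p = 0.00128), which did not reach the 3-fold threshold of the study. A gene was called where its adjusted p was under 0.01 and it changed more than 3-fold. By this rule 22.3% of the 11633 tested genes were called, and FCGR1A was the 1 called gene of the 2. FCGR3B was higher in microglia (log2 fold change 2.30 ± 0.18, edgeR adjusted p = 8.54e-12) and FCGR2-like lower (-1.98, SE 0.33, edgeR adjusted p = 6.88e-06).

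The macrophage sample of pig 12984 moved these values. Without it, the log2 fold change was 4.05 for FCGR1A and 1.57 for FCER1G. With each macrophage sample left out in turn, the log2 fold change of FCGR1A ran from 2.83 to 4.05. That of FCER1G ran from 0.695 to 1.57, and its edgeR adjusted p reached 0.0301, above the threshold. With a fixed effect for each pig, a replicate block in edgeR, it was 4.12 for FCGR1A and 1.76 for FCER1G (adjusted p = 0.000114), and FCER1G was then called. In that fit the 6 pigs with 1 sample, pig 12984 among them, add nothing to the difference. FCGR2-like lost its call in the same fit (log2 fold change -1.45, adjusted p = 0.0378). Pig 12984 had the highest macrophage marker sum (1140 CPM) and neutrophil marker sum (873 CPM) of the macrophage samples and the lowest B and plasma cell (680 CPM) and T cell (542 CPM) sums. The part of other cell types in the macrophage values was not tested.

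The comparison of hippocampal microglia with whole hippocampus asked which transcripts the isolated cells hold above the tissue they came from. FCER1G had 421 ± 83.0 against 10.7 ± 2.41 CPM (SD, n = 8 and 4), a log2 fold change of 5.29 ± 0.31 (SE; edgeR adjusted p = 4.85e-15). FCGR1A had 260 ± 27.4 against 5.69 ± 2.82 CPM, a log2 fold change of 5.51 ± 0.34 (SE; edgeR adjusted p = 1.25e-14). Of all tested genes 33.8% were called, here at a change of more than 4-fold, and both genes were among them. FCGR3B (log2 fold change 5.03, SE 0.20) and FCGR2-like (3.69, SE 0.48) were also called, though FCGR2-like was not with pig as a random replicate block in limma (3.49, adjusted p = 0.0103). None of these genes passed the filter on low counts through tissue, only through sorted cells, so these calls are a description. Both samples came from the same animal for 4 pigs, and the within-pig differences were 4.90 to 5.93 for FCER1G and 4.72 to 6.18 for FCGR1A on the log2 CPM scale. In whole tissue, fewer microglia and less RNA per microglial cell cannot be told apart.

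Alveolar macrophages were also above hippocampal tissue, a comparison added here to complete the order of the groups. Of all tested genes 29.6% were called, with the same thresholds. The log2 fold change was 4.29 for FCER1G (SE 0.31, edgeR adjusted p = 1.09e-12) and 2.33 for FCGR1A (SE 0.32, adjusted p = 2.45e-07), so both genes were called. The call of FCGR1A was lost without the macrophage sample of pig 12984 (log2 fold change 1.45) and with pig as a fixed replicate block (1.43), since the fold change then fell under 4. FCGR2-like had the largest log2 fold change of the 4 genes, at 5.89 (SE 0.57). Here, too, the genes passed the filter on low counts through sorted cells and not through tissue, so the calls are a description.

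**Figure D2:**
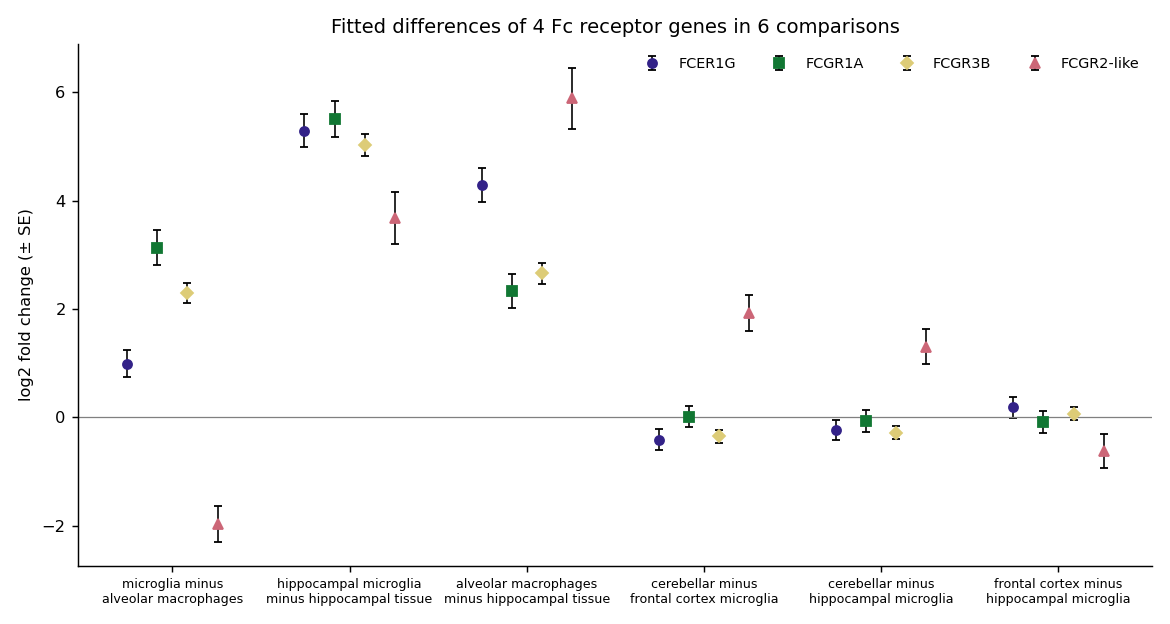
Fitted log2 fold change with its SE (vertical axis) of FCER1G, FCGR1A, FCGR3B and FCGR2-like in 6 comparisons, where a positive value is higher in the group named first. In microglia against alveolar macrophages the genes run from 3.13 for FCGR1A to -1.98 for FCGR2-like, and among brain regions FCGR2-like has the values farthest from 0.

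Neither of the 2 genes was called between brain regions. In an F test over cerebellar, frontal cortex and hippocampal microglia 2.03% of genes were called at an adjusted p under 0.01, and FCER1G (adjusted p = 0.297) and FCGR1A (adjusted p = 0.95 in edgeR) were not among them. Between cerebellum and frontal cortex, where 1.87% of genes were called, the log2 difference was -0.41 for FCER1G (95% interval from the SE, -0.78 to -0.04) and 0.01 for FCGR1A (-0.38 to 0.41). Between cerebellum and hippocampus, where 0.602% were called, it was -0.23 for FCER1G (-0.60 to 0.14) and -0.07 for FCGR1A (-0.46 to 0.32). Between frontal cortex and hippocampus, where 0.318% were called, it was 0.18 for FCER1G (-0.18 to 0.55) and -0.08 for FCGR1A (-0.48 to 0.31). These intervals bound the regional difference of FCGR1A to well under a doubling in either direction, but they do not show equal levels.

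FCGR2-like did differ between regions (adjusted p = 0.00087 in the F test). It passed the filter on low counts through cerebellar microglia and macrophages, and not through frontal cortex or hippocampal microglia. It was higher in cerebellar than in frontal cortex microglia, with 35.3 ± 12.1 against 9.27 ± 4.10 CPM (SD, n = 8 each) and a log2 fold change of 1.93 ± 0.33 (SE; edgeR adjusted p = 0.000569). Against hippocampal microglia, with 14.3 ± 4.08 CPM, the log2 fold change was 1.30 (SE 0.32, adjusted p = 0.0223), which was not called. In limma with pig as a random replicate block this difference was called (1.32, adjusted p = 0.00509). The frontal cortex sample of pig 12599 had 22 counts of FCGR2-like, against 211 to 417 in the other frontal cortex samples. Without it the cerebellar excess over frontal cortex was 1.76 (adjusted p = 6.24e-05 in edgeR). All 6 pigs with both samples were higher in the cerebellum than in the frontal cortex, by 1.19 to 4.54 on the log2 CPM scale, and all 4 pigs with both were higher in the cerebellum than in the hippocampus.

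The order of the 5 groups was tested for each gene by exact permutation of mean log2 CPM, two-sided, in 40 pairwise tests adjusted together. For FCER1G the order of mean CPM was frontal cortex (477), hippocampal (421) and cerebellar microglia (359), alveolar macrophages (210) and tissue (10.7). No neighbours among the sorted groups differed beyond their spread, the smallest adjusted p being 0.0713, for cerebellar microglia against macrophages. For FCGR1A the order was hippocampal (260), cerebellar (248) and frontal cortex microglia (245), macrophages (28.6) and tissue (5.69). Each region was above the macrophages (exact permutation, adjusted p = 0.023 each), while no pair of regions passed this test, which leaves out that samples share pigs. Within pigs FCGR1A was lower in the cerebellum than in the hippocampus in 4 of 4 pigs, with differences of -0.15 to -0.09 on the log2 CPM scale, and lower in the frontal cortex than in the hippocampus in 3 of 3 pigs (-0.40 to -0.13). It was higher in the cerebellum than in the frontal cortex in 5 of 6 pigs (-0.13 to 0.55). So few pigs cannot reach 0.05 in a two-sided exact test of the 4 or 3 differences. With 3 macrophage and 4 tissue samples the exact test cannot go below 0.0571, the value reached by both genes, although their groups did not overlap. For FCGR3B the cerebellum was below the hippocampus (log2 difference -0.28, exact permutation, adjusted p = 0.024) and the frontal cortex (-0.34, adjusted p = 0.0368), which the fit across all genes did not call.

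FCER1G varied more among microglia samples than FCGR1A, as a description without a test. The SD of log2 CPM within regions was 0.335 for FCER1G and 0.215 for FCGR1A, against a median of 0.252 for the 242 genes within 0.5 log2 units of the level of FCER1G and 0.253 for the 563 genes near that of FCGR1A. The spread of FCER1G was larger than that of 79.3% of genes of like level, and the spread of FCGR1A larger than that of 30.7%. In the frontal cortex FCER1G took values of 592 to 629 CPM in pigs 12707, 12720, 12847 and 12902 and of 316 to 380 CPM in pigs 12599, 12750, 12758 and 12891, with no sample between. The same first 4 pigs also had the 4 highest frontal cortex values of FCGR1A (259.9 to 335 against 183 to 237 CPM) and of FCGR3B (339 to 385 against 213 to 276 CPM). Total counts overlapped between these pigs, at 27309419 to 36417294 against 22197936 to 29608157, but the 2 deepest libraries were among the first and the 2 shallowest among the others, and the part of depth was not tested. The labels name no batch that holds either set of pigs.

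The count of a receptor per count of the Fc gamma chain in the same sample does not depend on the library size. Per 100 counts of FCER1G, FCGR1A had 61.8 to 75.6 counts in cerebellar, 43.2 to 74.9 in frontal cortex and 47.6 to 86.1 in hippocampal microglia. The macrophages had 13.2, 9.45 and 16.1 in pigs 12821, 12829 and 12984, and tissue had 37.0 to 84.8. The log2 ratio was 2.28 higher in microglia than in macrophages, without overlap (exact permutation, p = 0.000684, the smallest that 24 against 3 samples allow, adjusted p = 0.00205 over 15 ratio tests). The ratio tests, too, leave out that samples share pigs. The log2 difference was 2.45 without pig 12984 and 2.39 within the 2 pigs that gave both cells. Between hippocampal microglia and tissue the log2 ratio differed by 0.33 (exact permutation, adjusted p = 0.275), which was 0.58 (adjusted p = 0.0403) without the tissue of pig 12829.

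Between regions the FCGR1A to FCER1G ratio was higher in cerebellar than in frontal cortex microglia, by 0.39 on the log2 scale (exact permutation, adjusted p = 0.00866), and in 5 of the 6 pigs with both samples. The hippocampus did not pass the test against either region (adjusted p = 0.275 and 0.159, exact permutation), with log2 differences of 0.14 for the cerebellum and -0.25 for the frontal cortex. Within pigs these turned to -0.06, with the cerebellum higher in 1 of 4 pigs, and to -0.50, with the frontal cortex lower in 3 of 3 pigs. The FCGR3B to FCER1G ratio was 1.20 higher in microglia than in macrophages on the log2 scale (exact permutation, adjusted p = 0.00205). That value was 0.77 without the macrophages of pig 12984, in which FCGR3B had 16.0 counts per 100 of FCER1G. The FCGR2-like ratio went the other way, 3.10 lower in microglia than in macrophages (exact permutation, adjusted p = 0.00205), and was 2.51 higher in the cerebellum than in the frontal cortex (adjusted p = 0.00116). It was 1.57 lower in hippocampal microglia than in tissue, without overlap (exact permutation, adjusted p = 0.00866). The FCGR3B ratio was 0.25 lower in hippocampal microglia than in tissue (exact permutation, adjusted p = 0.0227, up to 0.0607 with 1 tissue sample left out). For both ratios, 0 of the 4 pigs with both samples were higher in microglia.

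**Figure D3:**
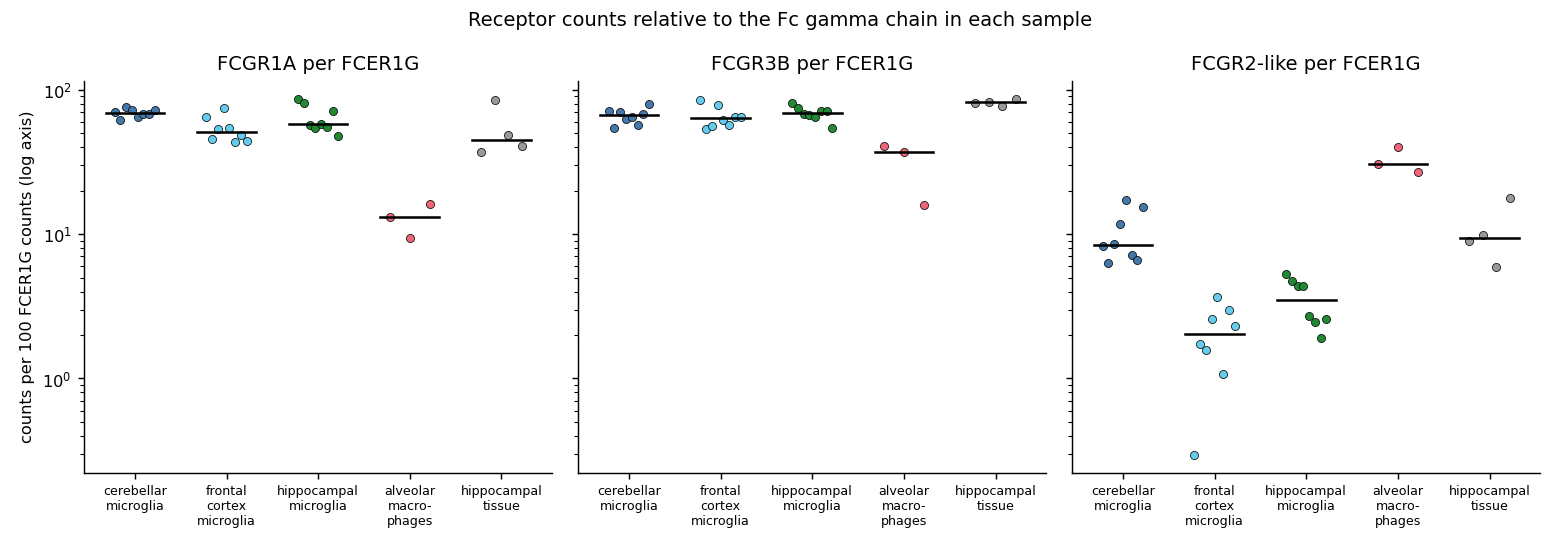
Counts of FCGR1A, FCGR3B and FCGR2-like per 100 counts of FCER1G in the same sample (log axis), with 1 point for each of the 31 samples and a line at the group median. FCGR1A runs from 43.2 to 86.1 in microglia and from 9.45 to 16.1 in alveolar macrophages, and FCGR2-like is highest in the macrophages, at 27.1 to 40.1.

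Beyond these receptors, FCGRT, TRIM21 and FCRL1 were expressed in microglia, and the other measured genes of the Fc receptor family were low there. Of 24 listed genes 17 had an identifier and 10 passed the filter on low counts. FCMR, FCRL3, FCRL4 and FCRL5 passed it through the macrophages alone, so that they had to differ, and the counts are a description. Against alveolar macrophages 2 of the 10 were higher in microglia (FCGR1A and FCGR3B), 5 were lower and 3 were not called. That is 70% called, against 22.3% of all tested genes. The median log2 fold change was -0.90 against 0.06 over all tested genes. The 5 lower genes were FCGR2-like, FCRL3, FCRL4, FCRL5 and FCMR. FCRL3 had 96.9 ± 34.1 CPM (SD, n = 3) in macrophages and was low but not absent in microglia. It had 5.4 ± 3.88 CPM in the hippocampus, with a highest value of 13.8 CPM. FCMR, which encodes the receptor for immunoglobulin M, had 86.7 ± 20.8 CPM (SD, n = 3) in macrophages and at most 0.254 CPM in microglia. FCRL5, a receptor of B cells, had 65.7 ± 18.1 CPM in macrophages and at most 0.887 CPM in microglia. Markers of B and plasma cells moved with them. CD79B and MS4A1 had 29.3 to 94.6 CPM in macrophages and at most 0.929 CPM in microglia, where CD79B had 0 counts in all samples, and JCHAIN had 417 to 2280 and at most 31.7 CPM. CD79A differed less, with 194 to 235 CPM in macrophages and at most 169 CPM in microglia. The part of these cells was not tested.

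FCRL1 stood apart from its neighbours in this family. It had 39.7 to 61.2 CPM in cerebellar, 12.7 to 26.2 CPM in frontal cortex and 23.7 to 43.9 CPM in hippocampal microglia, against 12.3 to 24.1 CPM in macrophages and 0.441 to 2.35 CPM in tissue. It and FCGR2-like were the 2 family genes called in the F test over regions (FCRL1, adjusted p = 0.00733 in edgeR). They are 20% of the 10 tested family genes, against 2.03% of all tested genes. Among the regions FCGR2-like passed the filter through the cerebellum alone, where it is high, so this share is a description. Both were called as higher in the cerebellum than in the frontal cortex, where 1.87% of all tested genes were called, and the groups did not overlap. FCGRT, which encodes the neonatal Fc receptor that protects immunoglobulin G from degradation, had 180 ± 40.9 CPM in microglia and 104 ± 7.14 CPM in macrophages (log2 fold change 0.79 ± 0.18, edgeR adjusted p = 0.000475, under 3-fold). TRIM21, the cytosolic antibody receptor, had 29.7 ± 6.54 and 26.3 ± 4.17 CPM (log2 fold change 0.17, adjusted p = 0.486).

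Against hippocampal tissue 7 of the 10 family genes were higher in hippocampal microglia and FCMR, FCRL4 and FCRL5 were not called, where 33.8% of all tested genes were called. All but FCGRT passed the filter through sorted cells and not through tissue, so the count is a description. The median log2 fold change was 3.42 against -0.08 over all tested genes. The untested genes were low in microglia. FCER1A and MS4A2, the other chains of the high affinity IgE receptor that FCER1G serves in mast cells and basophils, had 0 counts and 0 to 3.73 CPM in microglia. In the macrophages of pigs 12821, 12829 and 12984 FCER1A had 3.01, 14.2 and 4.68 CPM, and MS4A2 had 6.52 to 35.5 CPM. The summed CPM of 4 mast cell and basophil markers, which include both genes, moved with them, at 35.0, 160.0 and 95.5 in these pigs and 0 to 11.9 in microglia. KIT, a defining receptor of mast cells, had 24.6 to 96.1 CPM in macrophages and at most 11.9 CPM in microglia, but also at least 71.5 CPM in tissue, and the part of mast cells was not tested. FCAR, which encodes the IgA receptor and also signals through the Fc gamma chain, had 0 to 1.66 CPM in microglia and 2.58 to 18.2 CPM in macrophages. FCRL6 had 0 counts in microglia and 2.84 to 2.99 CPM in macrophages, FCRLA reached 1.14 and 16.5 CPM in these cells, PIGR reached 6.49 and 11.5 CPM, and FCRLB had 0 counts in all 31 samples.

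**Figure D4:**
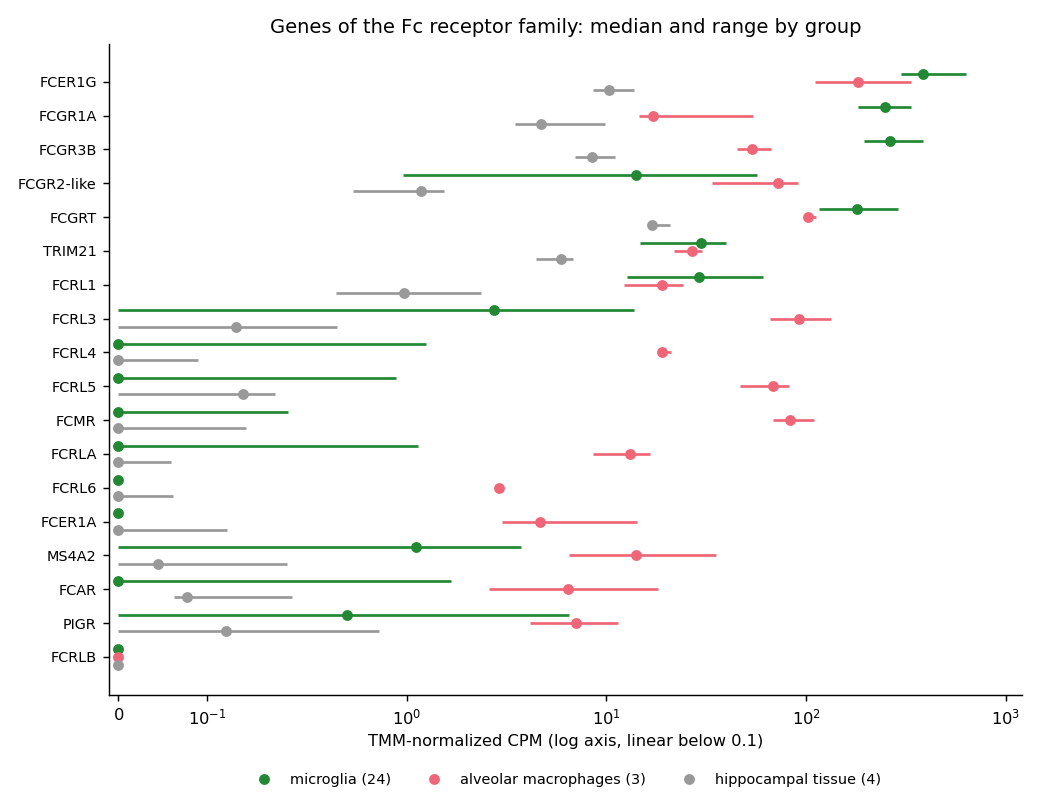
Median (point) and range (line) of TMM-normalized CPM for FCER1G and 17 genes of the Fc receptor family in microglia, alveolar macrophages and hippocampal tissue (log axis, linear below 0.1). FCER1G, FCGR1A, FCGR3B and FCGRT have their highest medians in microglia, above 100 CPM, while FCMR, FCRL3, FCRL4 and FCRL5 have theirs in macrophages.

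Genes that act with or after the Fc gamma chain were called against macrophages at a share near that of all genes. Of 96 listed adaptors, kinases, lipid enzymes, actin regulators, oxidase subunits and inhibitors, 82 were tested. Against alveolar macrophages 9 were higher in microglia, 14 were lower and 59 were not called, so 28% were called against 22.3% of all tested genes, with a median log2 fold change of 0.03 against 0.06. TEC, NCR1, CD247 and HCST passed the filter on low counts through the macrophages alone and PLA2G4A through microglia alone, so these 5 had to differ. SYK, the kinase recruited by the ITAM, had 83.9 ± 12.2 CPM in microglia and 106 ± 15.2 CPM in macrophages (log2 fold change -0.34 ± 0.12, edgeR adjusted p = 0.0181). LYN, a Src family kinase that phosphorylates the ITAM, had 210 ± 40.3 and 160 ± 30.0 CPM (log2 fold change 0.39, adjusted p = 0.0279). TYROBP, the other ITAM adaptor of microglia, had 130 ± 34.5 and 96.7 ± 43.9 CPM (log2 fold change 0.42, adjusted p = 0.168).

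The inhibitory enzymes were expressed in both cells as well. INPP5D, the lipid phosphatase that the IIb receptor recruits, had 698 ± 128 CPM in microglia and 399 ± 11.6 CPM in macrophages (log2 fold change 0.81 ± 0.17, edgeR adjusted p = 0.00019), under the 3-fold threshold. PTPN6, a tyrosine phosphatase, had 272 ± 42.2 and 284 ± 35.6 CPM (log2 fold change -0.06, adjusted p = 0.73). The 5 called signalling genes with the largest log2 fold changes were lower in microglia, and none of them passed the filter through a microglia group, so their direction is a description. They were TEC (17.4 to 29.6 CPM in macrophages and at most 1.84 CPM in microglia), GSN, which encodes the actin-severing protein gelsolin (436 ± 165 CPM and at most 37.2 CPM), NCR1 (21.4 to 34.0 and at most 3.16 CPM), CD247 (74.0 to 134 and at most 6.97 CPM) and FYN (138 to 174 and at most 34.6 CPM). NCR1 is a receptor of natural killer cells, and CD247 is the zeta chain of the T cell receptor. T cell markers moved with both, as given above. The summed CPM of 5 natural killer cell markers, NCR1 among them, was 227 to 306 in macrophages and 68.5 to 180.0 in microglia. Of these, KLRK1 had 53.6 to 79.3 CPM in macrophages and at most 5.95 in microglia, NKG7 had 52.5 to 93.4 and at most 27.1, KLRD1 had 1.83 to 3.45 and 0 counts, and PRF1 overlapped, at 90.8 to 96.3 and 43.4 to 170.0 CPM. The part of these cells was not tested.

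Against hippocampal tissue 37 of the 82 signalling genes were higher in hippocampal microglia, 10 were lower and 35 were not called. That is 57.3% called, against 33.8% of all tested genes, of which 1363 were higher and 2567 lower, and the median log2 fold change was 1.69 against -0.08. SYK (log2 fold change 4.89), PTPN6 (4.70), INPP5D (4.66), TYROBP (5.36) and LYN (3.59) were all called as higher, and all 4 tested subunits of the NADPH oxidase were higher. The 5 called genes with the largest log2 fold changes were lower in microglia. Of these YES1, MYO10 and AMPH passed the filter through tissue alone and so had to differ, TEC passed it through macrophages alone, and GSN through macrophages and tissue. YES1 and TEC had 0 counts in all hippocampal microglia samples, with 19.4 to 25.0 and 1.01 to 2.89 CPM in tissue. MYO10 had 249 ± 21.2 CPM in tissue and at most 5.01 CPM in hippocampal microglia, AMPH 159 ± 22.5 and at most 4.45 CPM, and GSN 88.6 ± 29.3 and at most 3.55 CPM. Neuronal and oligodendrocyte markers were also higher in tissue, with sums of 1720 to 2050 and 11000 to 21600 CPM against 1.17 to 35.3 and 138 to 403 CPM, and their part was not tested. Over the regions 2 of the 82 genes (2.44%) were called in the F test, a share near the 2.03% of all genes. They were ARPC5, a subunit of the Arp2/3 complex (adjusted p = 0.00385 in edgeR), with 117 ± 11.8 CPM in cerebellar and 176 ± 28.3 CPM in frontal cortex microglia, and DOCK1 (adjusted p = 0.00952), with 46.0 ± 9.61 and 26.4 ± 6.01 CPM. DOCK1 was higher in hippocampal tissue, at 71.0 ± 3.17 CPM, and did not pass the filter through hippocampal microglia (22.4 ± 9.05 CPM). The part of other brain cells in its regional values was not tested.

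The genes whose expression was most like that of each gene were listed as a description. Over the 24 microglia samples, with the mean of each region removed, the 5 genes with a symbol closest to FCER1G by Pearson's r of log2 CPM were HNRNPK (0.908), NDFIP1 (0.902), H3-3A (0.882), ZDHHC6 (0.872) and CD63 (0.857), of 10124 genes. Those closest to FCGR1A were CD53 (0.910), ALOX5AP (0.859), ITM2B (0.819), SLC25A5 (0.810) and HERPUD1 (0.806). FCGR1A and FCER1G had r = 0.687 with each other, FCGR3B had 0.820 with FCER1G and 0.736 with FCGR1A, and FCGR2-like had 0.217 and 0.00376. Over all 31 samples, where the contrast of sorted cells with tissue is shared, the closest to FCER1G were EVI2B (0.985), NCF1 (0.984), LAPTM5 (0.983), CXCL16 (0.983) and FOLR1 (0.982). The closest to FCGR1A were NLRP3 (0.989), IFNGR1 (0.988), IRAK2 (0.987), C1QB (0.985) and LY75 (0.985), and the 2 genes had r = 0.933 with each other. The samples share pigs, libraries and depth, so these values have no test.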

How the data were processed

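Total RNA was sequenced from 31 pig samples. Per the labels and the study's methods, the authors trimmed the reads, aligned them to Sscrofa11.1 with HISAT2 and counted them on Ensembl genes with StringTie; they deposited raw counts for 31907 genes, without normalization. The strand setting is not given in the sources used here. The 11633 genes above 10 CPM in every sample of any group were kept, scaled by TMM (factors 0.826 to 1.16) and fitted in 1 model of 5 groups by edgeR 4.0.16 (quasi-likelihood, robust) in R 4.3.3, with adjustment over all tested genes. SEs were derived from the F statistic, and log2 CPM used a prior count of 2. Permutation tests used scipy 1.17.1, with 0.5 added to counts in ratios. The fit was tested on simulated data. The methods name limma-voom, an alternative here with limma 3.58.1, beside DESeq2 1.42.0.

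The tag in the labels marks the animal, so it pairs samples. Same-pig deviations from the group means correlated by -0.374 to 0.433 over 25 pairs (median 0.0417). No replicate was a copy of another, since chi-square divided by its degrees of freedom was 18.9 or more for each pair.

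The genes and lists were chosen with earlier results of these data known. Named were the given genes, the measured family, SYK, LYN, INPP5D, PTPN6 and TYROBP, the 5 called signalling genes with the largest change (for regions, the smallest p), and the 5 closest genes by correlation. Identifiers came from the supplementary tables, then from a reference table where a symbol had 1 identifier, and positions and sequences from RefSeq. 1 marker gene is not reported here.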

Additional observations from a re-analysis of the deposited data

Results flagged for a closer look

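Of 44 sets of log2 CPM values (FCER1G and 10 tested genes of the Fc receptor family, each in 4 groups of 4 or 8 samples), 11 held a sample farther from the rest than Dixon's 95% critical value. Chance gives about 1 in 20. FCGR1A in the hippocampal microglia of pig 12847 was 322 CPM, with the nearest sample at 268 CPM. FCGR2-like in the frontal cortex microglia of pig 12599 was 0.959 CPM (22 counts), with the nearest at 6.45 CPM. FCRL1 in the cerebellar microglia of pig 12891 was 61.2 CPM, with the nearest at 48.5 CPM.

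The other sets were of genes near 0 counts. FCMR was 0.128 CPM in cerebellar microglia of pig 12583, 0.254 CPM in frontal cortex microglia of pig 12720 and 0.157 CPM in the tissue of pig 12821. FCRL4 was 0.348 CPM in cerebellar microglia of pig 12902, 1.25 CPM in hippocampal microglia of pig 12817 and 0.0894 CPM in the tissue of pig 12829. FCRL5 was 0.887 CPM in frontal cortex microglia of pig 12847 and 0.0597 CPM in hippocampal microglia of pig 12817.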

How the results depend on the processing

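Over the 7 comparisons, 138 of 146 alternative values of FCER1G and FCGR1A kept the direction and the side of the threshold of the reported value. With pig as a fixed replicate block FCER1G was called against alveolar macrophages (1.76), and FCGR1A of macrophages against tissue was not (1.43). Without 1 sample each, that value of FCGR1A ran from 1.45 to 2.74, and the FCGR1A to FCER1G log2 ratio of hippocampal microglia against tissue from 0.18 to 0.58. The FCGR1A difference between cerebellum and frontal cortex, 0.01 as reported, turned to -0.002 with DESeq2 and RLE factors. It was -0.026 with filterByExpr and with no filter on low counts, and -0.015 without the frontal cortex sample of pig 12599. Leaving out that sample was chosen after seeing the data. The block changed no other call of the 2 genes, while within pigs the FCGR1A to FCER1G log2 ratio turned from 0.14 to -0.06 for cerebellum against hippocampus and went from -0.25 to -0.50 for frontal cortex against hippocampus, neither of which had passed the test.

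Counts of called genes moved more than single values. For cerebellum against frontal cortex 217 genes were called, against 511 with DESeq2, 129 without a filter, 104 with only the groups compared and 381 with pig as a random replicate block. For cerebellum against hippocampus 70 were called, against 45 with limma-voom, 452 with DESeq2 and 0 with pig as a fixed replicate block in edgeR (1327 genes at an unadjusted p under 0.05). For frontal cortex against hippocampus 37 were called, against 391 with DESeq2, 17 without a filter, 4 with only the groups compared and 1 with the fixed block. Without the frontal cortex sample of pig 12599, 19 were called. In the F test 236 were called, against 790 with DESeq2, 144 with only the groups compared, 85 with the fixed block and 385 with the random block. Against macrophages 2597 were called, against 4659 with filterByExpr and 5060 without a filter, and against tissue 3930, 7083 and 7868, since more genes were tested. The cause of the other shifts was not tested. Few macrophage and tissue samples limit the exact tests, which cannot pass the threshold for 3 against 4.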
